A study of Mus musculus with 3 samples.

Results

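The genes examined here are the mouse vomeronasal receptors, taken as every row of the deposited table whose symbol begins with Vmn1r or Vmn2r and whose locus lies on chromosomes 1 to 19. The rule gave 347 rows of 24458 in the table. Of these, 218 carry a Vmn1r symbol and 129 a Vmn2r symbol. The rows hold 328 different symbols, because 15 symbols stand on 2 or more rows each, and a further 7 Vmn rows lie off these chromosomes and were left out. The rule uses symbols and loci, not measured values. RNA was sequenced from the dentate gyrus, dissected from adult C57BL/6 mice of 8 weeks, with 1 library from each of 3 animals. All 3 libraries carry the group label E24, which the labels do not explain. The values were deposited under a name with the tags WT and ECT, which are not interpreted here. No other group was listed, so the contrasts below are between receptor classes, chromosomes and positions within the same libraries. The study as a whole concerned chromatin and RNA in the dentate gyrus after neuronal activation, a question that 1 group cannot address.

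Vomeronasal receptors are G protein-coupled receptors that detect pheromones and other chemical signals in the sensory neurons of the vomeronasal organ. The Vmn1r (V1R) genes have short coding regions on a single exon, are made in the apical layer of that organ and signal through the G protein subunit Gnai2. The Vmn2r (V2R) genes have several exons and encode a long extracellular domain, are made in the basal layer and signal through Gnao1. Both classes sit in tandem clusters of close copies in the genome, each sensory neuron uses 1 or very few of them, and the dentate gyrus is not a known site of their expression. The median locus in the table was 925 bp long for Vmn1r rows and 23842 bp for Vmn2r rows. They fell on 11 chromosomes, with 172 rows on chromosome 7, 60 on chromosome 6, 46 on chromosome 17, 36 on chromosome 13 and 11 on chromosome 5.

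The sequences in front of these genes are shown because the members share a composition there that differs from that of most promoters in the reference. RefSeq windows of the GRCm38.p6 build matched 291 of the 328 symbols, giving 292 windows, and the 250 bases before each annotated start were read. CG dinucleotides are in capitals in the windows printed here. Each window is written 5′ to 3′ on the gene's strand. The annotated start was followed directly by ATG in 86.0% of Vmn1r windows and 87.7% of Vmn2r windows, against 5.83% of all windows, so for most members the window precedes the coding start and may not be the promoter. Vmn1r59 (minus strand, chr7:5454760-5455009) and Vmn1r204 (plus strand, chr13:22555951-22556200) are shown for the first class.

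Vmn1r59: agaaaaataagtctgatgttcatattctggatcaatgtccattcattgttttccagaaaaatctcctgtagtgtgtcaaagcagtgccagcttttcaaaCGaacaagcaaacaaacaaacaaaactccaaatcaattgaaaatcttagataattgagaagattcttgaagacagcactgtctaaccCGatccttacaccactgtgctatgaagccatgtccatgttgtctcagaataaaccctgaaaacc
Vmn1r204: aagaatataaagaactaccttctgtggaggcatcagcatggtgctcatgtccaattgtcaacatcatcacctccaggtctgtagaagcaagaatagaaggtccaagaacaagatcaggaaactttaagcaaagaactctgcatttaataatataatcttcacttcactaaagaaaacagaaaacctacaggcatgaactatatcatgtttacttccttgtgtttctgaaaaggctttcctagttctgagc

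Vmn2r29 is shown because it was the only member symbol with 2 windows, and these differ in CG content. Its distal window (minus strand, chr7:7278290-7278539) held 17 CG and had a GC content of 60.8%, while its proximal window (minus strand, chr7:7247329-7247578) held 0 CG and had a GC content of 39.2%. Vmn2r31 (minus strand, chr7:7399628-7399877) and Vmn2r35 (minus strand, chr7:7819868-7820117) are shown beside them as neighbouring copies.

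Vmn2r29 distal: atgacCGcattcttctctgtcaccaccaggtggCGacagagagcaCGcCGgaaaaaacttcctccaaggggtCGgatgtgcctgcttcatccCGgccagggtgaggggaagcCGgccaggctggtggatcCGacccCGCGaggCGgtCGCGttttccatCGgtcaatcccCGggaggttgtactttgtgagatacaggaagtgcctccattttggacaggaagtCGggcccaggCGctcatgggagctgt
Vmn2r29 proximal: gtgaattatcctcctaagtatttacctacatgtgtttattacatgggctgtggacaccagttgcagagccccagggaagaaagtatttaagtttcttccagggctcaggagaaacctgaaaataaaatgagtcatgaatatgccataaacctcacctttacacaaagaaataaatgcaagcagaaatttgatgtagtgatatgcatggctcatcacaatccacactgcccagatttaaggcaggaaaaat
Vmn2r31: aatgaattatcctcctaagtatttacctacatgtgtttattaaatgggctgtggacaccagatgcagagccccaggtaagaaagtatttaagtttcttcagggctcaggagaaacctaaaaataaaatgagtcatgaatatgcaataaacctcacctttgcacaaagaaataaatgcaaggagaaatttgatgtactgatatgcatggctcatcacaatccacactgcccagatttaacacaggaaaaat
Vmn2r35: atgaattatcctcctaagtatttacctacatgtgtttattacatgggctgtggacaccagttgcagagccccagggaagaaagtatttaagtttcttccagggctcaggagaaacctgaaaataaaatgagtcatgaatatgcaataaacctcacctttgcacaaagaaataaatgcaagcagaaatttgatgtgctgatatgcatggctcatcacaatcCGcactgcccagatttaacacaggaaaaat

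The proximal Vmn2r29 window was 94.8% identical to that of Vmn2r31 and 96.8% identical to that of Vmn2r35, and the last pair were 96.4% identical to each other. The distal Vmn2r29 window was 46.2% identical to the proximal one. Where transcripts of such copies are as alike, reads may fit more than 1 of them. How the counting placed such reads is not given in the sources used here, and their share was not measured. Whether the counting used strand is not given either, so reads of an overlapping antisense gene could not be told apart.

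Windows of both receptor classes were poor in CG. The median window held 1 CG for Vmn1r (178 windows) and 1 for Vmn2r (114 windows), against 6 for all 32851 windows of the reference. A count of 5 or more CG was found in 0.562% of Vmn1r windows, 0.877% of Vmn2r windows, 2.32% of odorant receptor windows and 55.6% of all windows. The window with 17 CG at Vmn2r29 was the highest of the members, followed by Vmn1r54 with 5. Median GC content was 34.4% for Vmn1r, 38.4% for Vmn2r, 34.0% for odorant receptors and 52.4% for all windows. Of the motifs searched on both strands, TATAAA occurred in 39.9% of Vmn1r windows, 21.1% of Vmn2r windows, 39.2% of odorant receptor windows and 12.4% of all windows. TAATTA, a homeodomain core, occurred in 8.43% of Vmn1r windows, 16.7% of Vmn2r windows, 18.0% of odorant receptor windows and 4.84% of all. Odorant receptor windows also had a median of 1 CG, so these traits are shared with another chemosensory receptor family. Both motifs consist of A and T only and can share bases with each other, and a match describes letters only.

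**Figure D1:**
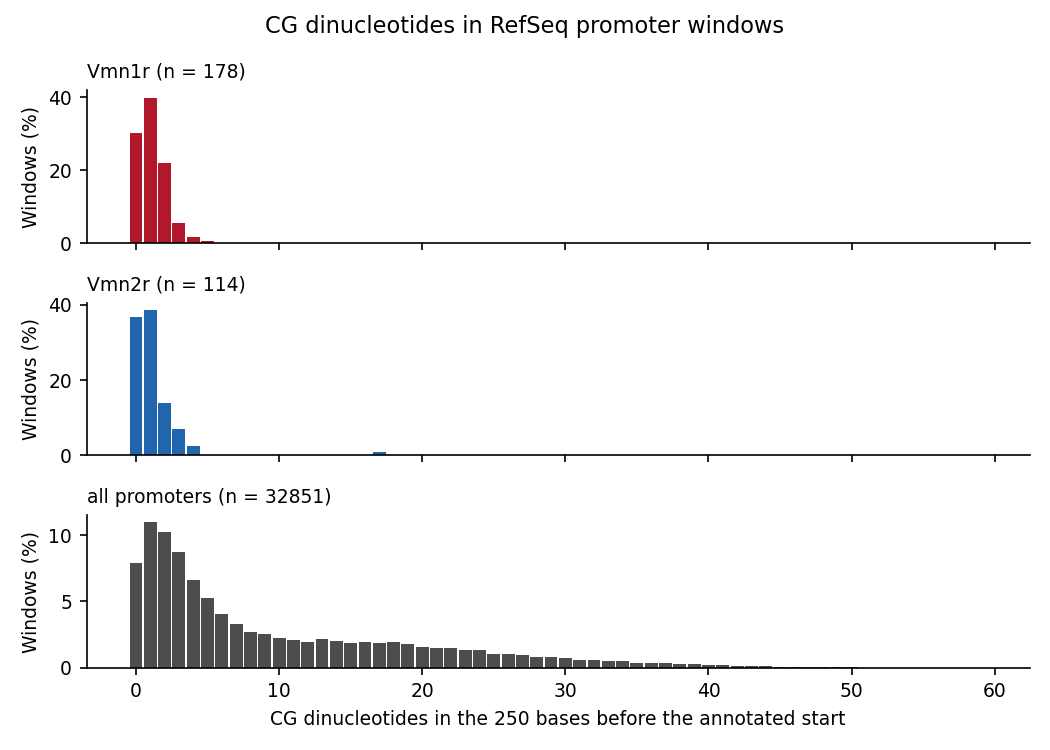
Histogram of the number of CG dinucleotides (x axis) in the 250 bases before the annotated start, as a percentage of the windows in each group (y axis, scaled separately per panel), for Vmn1r, Vmn2r and all RefSeq windows. Both receptor classes have a median of 1 CG against 6 for all windows, and the single bar at 17 is the distal window of Vmn2r29.

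Before the levels are given, a property of the table has to be stated. Values stand on different rows in different libraries, for some of them a few rows apart. A level therefore belongs to the row named for a receptor and cannot be assigned to that receptor. Where a Vmn row was at 1 RPKM or more (reads scaled to gene length and library size), each of the other 2 libraries was searched for a value of like size (natural-log difference up to 0.1) on the same row or up to 10 rows away. Of 186 such comparisons, 7.53% found their match on the same row, 40.9% on another row within 10 rows and 51.6% on none. Windows of the same size elsewhere on the chromosome, centred 40 to 100 rows away, held a match by coincidence in 28.5% of cases. For other autosomal rows 22.6% of comparisons matched on the same row. Same-row matches made up 6.00% of comparisons for Vmn1r rows and 9.30% for Vmn2r rows, and matches on another row 26.0% and 58.1%. The coincidence share was 27.1% for Vmn1r and 30.03% for Vmn2r. It is not counted like the matches on another row, which were sought only where the same row had none. A window elsewhere counted any match. No match on the same row or within 10 rows was found in 68.0% of comparisons for Vmn1r and 32.6% for Vmn2r. The remaining comparisons held some match, a share near the coincidence share for Vmn1r and well above it for Vmn2r. Placement a few rows apart is thus hardly shown for Vmn1r rows. The difference between the classes was not tested.

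Vomeronasal receptor rows were mostly at 0 in the dentate gyrus libraries. Of the 347 rows, 241 (69.5%) were listed at 0 in all 3 libraries, where 18.8% of all rows in the table were. The share was 76.1% for Vmn1r rows and 58.1% for Vmn2r rows. Rows at 1 RPKM or more numbered 28, 33 and 32 in replicates 1, 2 and 3, which is 8.07%, 9.51% and 9.22% of the members (mean 8.93% ± 0.762, SD, n = 3). The corresponding share was 51.3% ± 0.495 for other autosomal rows and 5.69% ± 0.526 for the 1114 rows of odorant receptors, the larger receptor family of the main olfactory epithelium. Vmn rows exceeded odorant receptor rows in each of the 3 libraries, by 3.25 percentage points ± 0.686 (exact two-sided sign-flip test over libraries, p = 0.25, the smallest that 3 libraries allow). No contrast between shares in these data can go below that value, so the tests of shares describe only whether a difference repeats. In a bulk tissue, fewer cells with a transcript and less of it per cell cannot be told apart, and read depth is unknown, so a row listed at 0 is not shown to be absent.

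Only 3 rows reached 1 RPKM in every library, which is 0.865% of the members, against 32.4% of all rows in the table. A further 16 rows (4.61%) did so in 2 libraries, 52 (15.0%) in 1 library and 276 (79.5%) in none. Of all table rows, 17.3% did so in 2 libraries, 17.4% in 1 and 33.0% in none. The 1-library share of the members was thus near that of the table. The row named Vmn1r89, on mm9 chromosome 7 from 13804687 to 13805638, stood at 104.9, 93.7 and 89.4 RPKM. The row named Vmn1r59, on chromosome 7 from 5405428 to 5406361, stood at 7.35, 5.80 and 6.92 RPKM. The row named Vmn2r29, on chromosome 7 from 7165706 to 7231000, stood at 3.47, 2.19 and 5.48 RPKM. The Vmn1r89 and Vmn1r59 rows varied less between the animals than the Vmn2r29 row, none of whose values had a match within the natural-log tolerance on its own row in another library. Each of the 3 was the first or last row of its run of Vmn rows. The row named Vmn1r183, also at the end of a run, held low but repeated values of 0.554, 0.417 and 0.752 RPKM.

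The classes were then compared over rows. Values that stand on a receptor row in only some libraries enter these shares and those by position and chromosome below. Vmn1r rows at 1 RPKM or more made up 6.88%, 9.17% and 6.88% of their class, and Vmn2r rows 10.08%, 10.08% and 13.2%. The Vmn2r share was higher in 3 of 3 libraries, by 3.47 percentage points ± 2.71 (exact sign-flip p = 0.25). The difference was 4.75 points without replicate 2 and 2.05 points without replicate 3, and at a threshold of 5 RPKM it was 1.36 points and held in 2 of 3 libraries. The classes stood further apart in values above 0 but under 1 RPKM. Such values occurred on 3.21% ± 0.917 of Vmn1r rows and 10.59% ± 2.24 of Vmn2r rows, higher for Vmn2r in 3 of 3 libraries by 7.38 points ± 3.07 (exact sign-flip p = 0.25). Locus length differs between the classes as stated above, and its part in this difference was not tested.

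**Figure D2:**
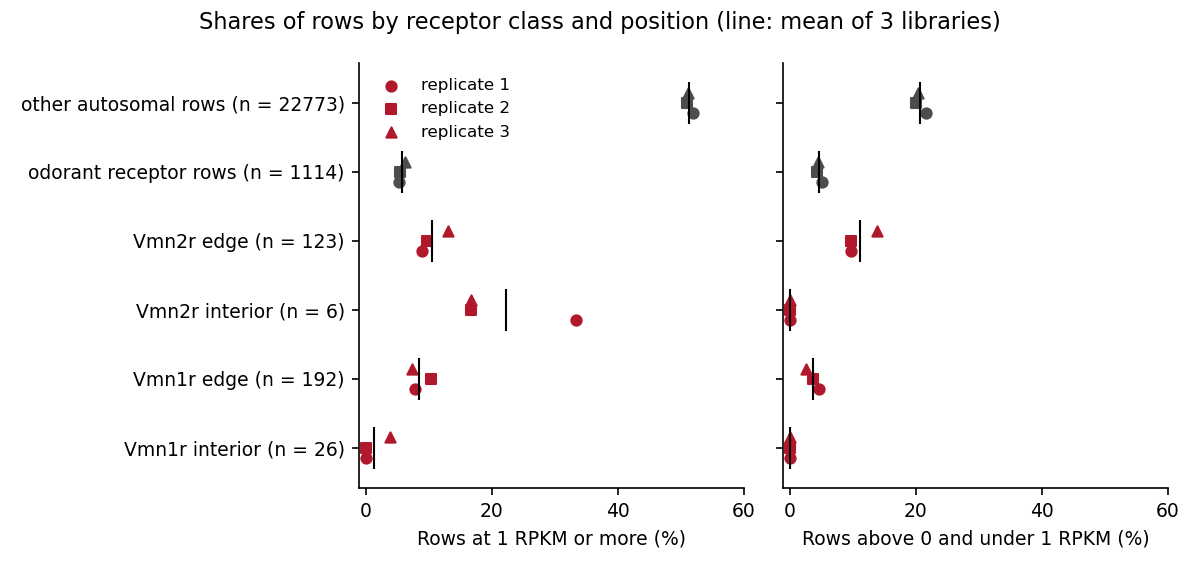
Percentage of rows at 1 RPKM or more (left) and above 0 but under 1 RPKM (right) in each of the 3 libraries, for Vmn1r and Vmn2r rows in the interior and at the edges of runs, odorant receptor rows and other autosomal rows; vertical lines are means of 3 libraries. Vmn rows lie far below the other autosomal rows (51.3%), and low values occur on edge rows of both classes but on 0 interior rows.

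Position within a cluster was read from the order of the table. The members formed 92 unbroken runs, of which 6 had 10 or more rows and 31 had a single row, and the longest, from Vmn1r193 to Vmn1r222 on chromosome 13, had 31. With 5 rows set aside at each edge, 32 rows were interior (26 Vmn1r and 6 Vmn2r) and 315 were edge rows. Interior rows were at 1 RPKM or more in 6.25%, 3.13% and 6.25% of cases (5.21% ± 1.80), and edge rows in 9.31% ± 0.970. The interior share was lower in 3 of 3 libraries, with a difference of interior minus edge of -4.10 percentage points ± 2.62 (exact sign-flip p = 0.25). With runs taken in genomic order, which gave 61 interior rows, that difference was -0.89 and did not repeat in every library. In table order but without replicate 2 it was -2.64 points. The pooled direction is that of Vmn1r, and Vmn2r went the other way in every library. Interior and edge shares were 1.28% ± 2.22 and 8.51% ± 1.67 for Vmn1r. They were 22.2% ± 9.62 and 10.57% ± 2.15 for Vmn2r, with 6 interior rows. Values between 0 and 1 RPKM were found on 0 interior rows and on 6.56% ± 0.485 of edge rows.

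The interior of the runs was carried by few rows. Of the 26 interior Vmn1r rows, 25 were at 0 in every library. The exception was the row named Vmn1r204 on chromosome 13, at 0, 0 and 4.17 RPKM. Of the 6 interior Vmn2r rows, 3 held a value in some library. A row named Vmn2r35 (chromosome 7, 8639867 to 8851885) stood at 9.96, 49.3 and 0 RPKM, the row named Vmn2r34 at 16.5, 0 and 0, and the row named Vmn2r39 at 0, 0 and 14.1. No interior row was above 1 RPKM in all 3 libraries. The Vmn2r share of interior rows exceeded the Vmn1r share by 20.9 points ± 10.9, higher in 3 of 3 libraries (exact sign-flip p = 0.25). It rests on 6 rows of 2 runs, of which the 2 on chromosome 17 (Vmn2r98 and Vmn2r99) were at 0 throughout, and was 5.71 points with runs that bridge 1 other row (26 Vmn2r rows), 2.29 points with runs that bridge 2 (46 Vmn2r rows), and 9.39 points with runs in genomic order (18 Vmn2r rows). The class difference in mean log2(RPKM + 1) over interior rows was 0.92 ± 0.35, higher for Vmn2r in 3 of 3 libraries (exact sign-flip p = 0.25), and became 0.37 and 0.17 with the bridged runs.

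Across all runs the outermost rows held more signal than the next ones. Rows at the very edge of a run (153 rows) were above 0 in 22.9% ± 1.13 of cases and at 1 RPKM or more in 12.9% ± 1.64. Rows 1 step further in (79 rows) were above 0 in 9.28% ± 0.731 of cases and at 1 RPKM or more in 4.64% ± 1.93. No trend held further in: rows 3 steps from an edge were at 1 RPKM or more in 8.89% ± 1.92 of cases. The outermost group includes the single-row runs, which have other genes on both sides.

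To look deeper into the clusters, Vmn rows separated by no more than 5 other rows were joined, and joined sets with 10 or more Vmn rows were kept. This gave 10 stretches with 276 Vmn rows and 90 other rows. Outside them, 53.6% of rows at a distance of 21 to 30 rows were at 1 RPKM or more, and 44.0% ± 2.15 of rows at a distance of 1 to 5 rows. Inside, the share for Vmn rows was 9.96% ± 2.70 in the outer 5 rows, 10.38% ± 3.41 in rows 6 to 10, 6.16% ± 1.26 in rows 11 to 20 and 2.17% ± 2.17 beyond row 20. The step at the border was larger than the spread between libraries. It sets other genes outside against Vmn rows inside, with the 90 other rows inside left out. It therefore does not separate position from the kind of row. Inside, the libraries of the first 3 depth classes overlapped from class to class, while the lowest library of rows 11 to 20 (5.43%) lay above the highest beyond row 20 (4.35%). The inside classes hold different chromosomes in different proportions.

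**Figure D3:**
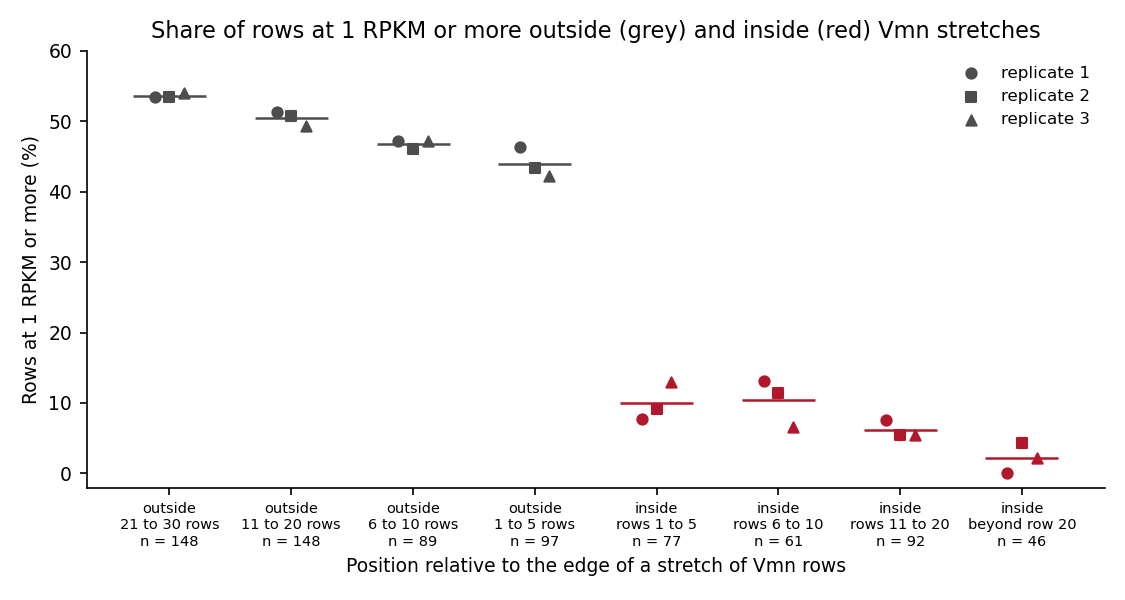
Percentage of rows at 1 RPKM or more in each of 3 libraries (symbols) and their mean (line) by distance in table rows from the edge of 10 stretches of Vmn rows; outside positions are all rows that are not members, inside positions are Vmn rows. The share was 44.0% for other rows just outside and 9.96% for Vmn rows just inside, so the step does not separate position from the kind of row.

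Other genes that sit among the receptors in the table were also mostly empty. Of the 90 other rows in the stretches, 67 were at 0 in all 3 libraries, where 18.8% of all rows in the table were. Of the 90, 37 have a Gm symbol, the prefix of predicted genes. A symbol that RefSeq lists as a synonym of a Vmn gene stands on 17, so these may be unrenamed receptors. The rows named V1ra8, V1rd18, V1rd19, Fpr-rs3 and Fpr-rs6 also carry symbols of vomeronasal receptor families. For 32 of the 90 the locus lies outside the span of the Vmn rows, because the table is not in strict genomic order, and 18 of these were at 0 throughout. The rows named Shisa7 and Clcn4-2, which border the Vmn2r run of chromosome 7 in table order, were at 0 in all 3 libraries. Within 3 rows of the 6 long runs lay 36 rows, 13 of them Vmn rows of other runs and 23 other rows. Of the 23, 3, 2 and 1 were at 1 RPKM or more in replicates 1, 2 and 3, and 1 was in all 3. That was the row named Cplx1, a synaptic complexin, at 6.38, 8.16 and 17.6 RPKM. Of other autosomal rows, 51.9%, 51.0% and 51.1% were at that level, and 33.7% in all 3. These flanks are counted by table row, and some have loci away from the run.

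By chromosome, the classes did not keep 1 order. On chromosome 6, Vmn1r rows were at 1 RPKM or more in 11.8%, 15.7% and 13.7% of 51 cases and the 9 Vmn2r rows in 0% in every library. On chromosome 7, Vmn1r rows were at that level in 5.31%, 6.19% and 5.31% of 113 cases and Vmn2r rows in 16.9%, 13.6% and 15.3% of 59. Vmn2r minus Vmn1r was therefore -13.7 percentage points ± 1.96 on chromosome 6 and 9.65 ± 2.15 on chromosome 7. The 2 differences lay 23.4 points ± 0.311 apart, in the same direction in 3 of 3 libraries (exact sign-flip p = 0.25). Their opposite signs in every library already fix that p, so it adds no support. On chromosome 17 the share of the 14 Vmn1r rows was 21.4%, 21.4% and 0%, and that of the 32 Vmn2r rows 3.13%, 6.25% and 12.5%, so no order held there. Vmn1r rows of chromosome 13 had the lowest share of the larger sets, with 0%, 0% and 2.78% of 36 rows. Within the Vmn1r class, chromosome 6 exceeded chromosome 7 by 8.12 points ± 1.54, and chromosome 13 minus chromosome 7 was -4.68 ± 1.91, each in the same direction in 3 of 3 libraries (exact sign-flip p = 0.25 for both). The 8 Vmn2r rows of chromosome 3 were all under 1 RPKM, and the 11 of chromosome 5 averaged 18.2% ± 9.09. Other rows of chromosome 7 stood at 44.2%, above every class there.

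**Figure D4:**
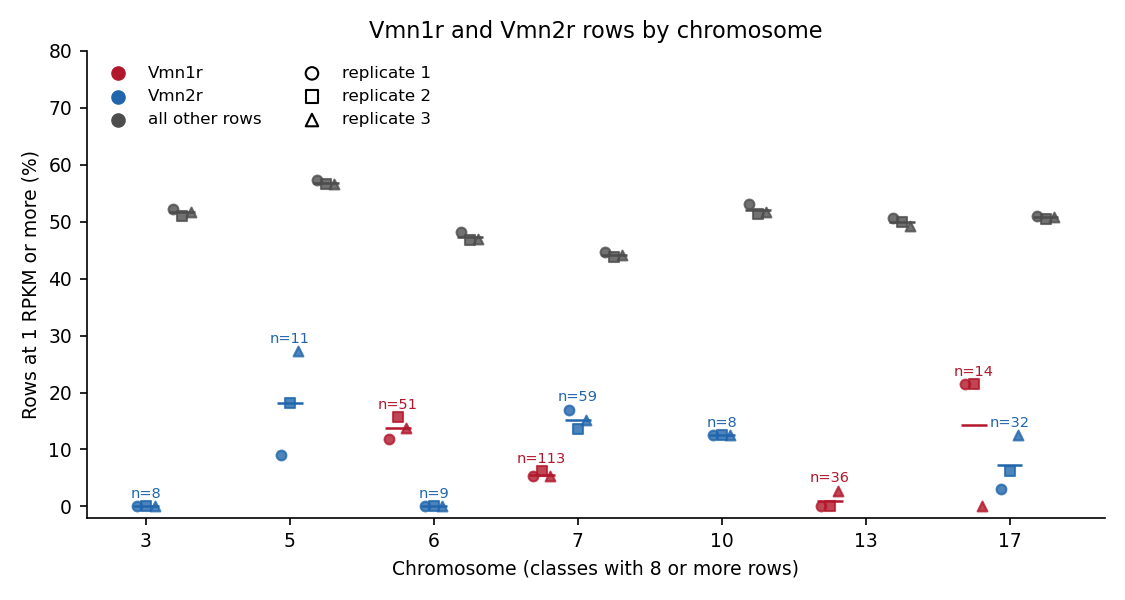
Percentage of rows at 1 RPKM or more in each of 3 libraries (symbols) with the mean (line), for Vmn1r rows, Vmn2r rows and all other rows of each chromosome with at least 8 rows of a class; n is the number of Vmn rows. Vmn1r lies above Vmn2r on chromosome 6 and below it on chromosome 7 in every library, and on chromosome 17 the libraries differ.

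The single stretches show what the values look like in each animal. The Vmn1r rows from Vmn1r91 to Vmn1r183 on chromosome 7 (mm9 20686506 to 24840710) cover 123 rows of the table, 73 of them Vmn rows. Of the 123, 107 were at 0 in all libraries. Each library held exactly 1 value above 100 RPKM there. It was 1002 RPKM on a row named Gm4201 in replicate 1, 951 RPKM on the row named Vmn1r165 in replicate 2 and 892 RPKM on a row named Gm10662 in replicate 3 (948 ± 55.0, SD, n = 3). RefSeq lists Gm4201 as a synonym of Vmn1r256. The next highest values of the stretch were 46.9, 2.63 and 39.8 RPKM. The value near 1000 thus recurred in every library at about the same size, on rows that differ by up to 58 rows. The row named Apoe, for the apolipoprotein that astrocytes make in large amounts, lies within this set of rows and was listed at 0 in all 3 libraries. The value lay 55 rows after it in replicate 1, 3 rows before it in replicate 2 (-3) and 34 rows after it in replicate 3. The origin of the value was not tested, and it cannot be read as a level of Vmn1r165.

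**Figure D5:**
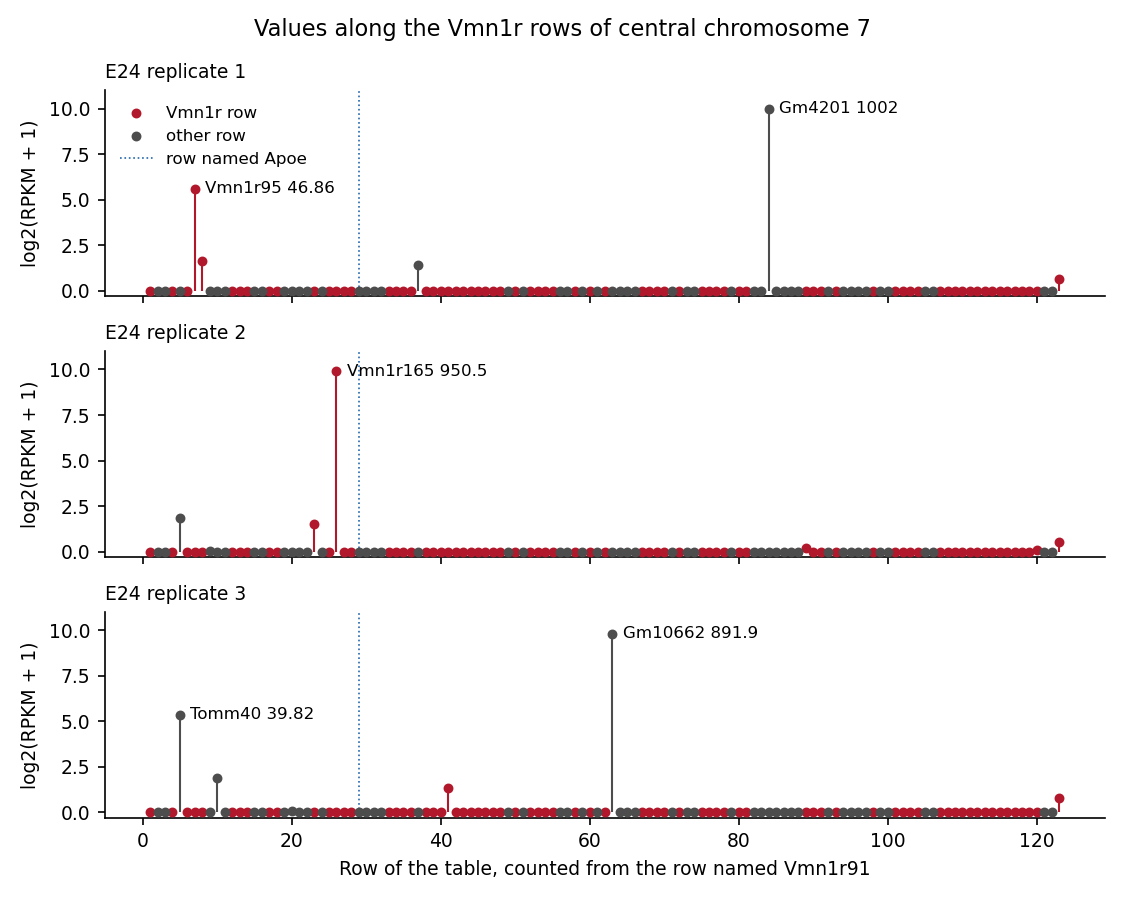
Values as log2(RPKM + 1) (y axis) along 123 consecutive table rows (x axis) in replicates 1, 2 and 3, with Vmn1r rows in red, other rows in grey and the row named Apoe dotted. Each library has 1 value near 1000 RPKM on a different row, and 107 of the rows are at 0 in all 3.

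The Vmn2r rows of proximal chromosome 7 showed the same feature with a set of values. In the 14-row run that begins and ends with rows named Vmn2r35 and Vmn2r43, each library held 3 values of 1 RPKM or more. In replicate 1 these were 48.5 RPKM on Vmn2r31, 9.96 on Vmn2r35 and 16.5 on Vmn2r34. In replicate 2 they were 49.3 on Vmn2r35, 13.4 on Vmn2r40 and 19.7 on Vmn2r46. In replicate 3 they were 49.3 on Vmn2r31, 14.1 on Vmn2r39 and 19.9 on Vmn2r40. In row order each library thus gave a high, a low and a middle value of similar size, on rows that only partly coincide. The summed RPKM of the run was 75.0, 82.3 and 83.2, which spans less than the values of any of the rows just named. The row named Vmn2r71, on chromosome 7 from 92763971 to 92773057, stood at 33.5, 33.0 and 0 RPKM, and Vmn2r65 in the same stretch at 0, 0 and 17.7.

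On chromosome 5 the 10-row run from Vmn2r8 to Vmn2r17 contained 6 rows at 0 in every library. Its signal stood on Vmn2r11 in replicate 1 (17.2 RPKM), on Vmn2r9 in replicate 2 (17.0) and on both Vmn2r10 (8.90) and Vmn2r12 (8.89) in replicate 3. The sums were 17.2, 17.0 and 17.8 RPKM, with a coefficient of variation of 2.40%. This was the lowest of the 10 stretches, whose sums over all rows varied by up to 108.8%, and the run is described because it was seen to be so. In it no row was at 1 RPKM or more in more than 1 library.

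On chromosome 17, replicate 1 had 6.97, 12.6 and 10.7 RPKM on the rows named Vmn1r226, Vmn1r227 and Vmn1r228. Replicate 2 had 4.44, 7.72 and 12.8 RPKM on Vmn1r230, Vmn1r231 and Vmn1r232. Replicate 3 had 0 on all 6 of these rows. The sets lie close to each other in the table, and the libraries share none of these rows. On chromosome 6 between 56906506 and 58422872, the highest value of the stretch and the 10 rows on each side was 203.8 RPKM on the row named Kbtbd2 in replicate 1, 186.2 on Fam188b in replicate 2 and 181.6 on Vmn1r10 in replicate 3. The row named Vmn1r10 was at 0 in the other 2 libraries. The highest value was of like size in the 3 libraries, and only in replicate 3 did it stand on a receptor row. On chromosome 7 the row named Vmn1r55, alone in its run, stood at 0, 0 and 101.5 RPKM, and on chromosome 6 Vmn1r45 stood at 56.9, 0 and 3.82. On the same chromosome Vmn1r40 stood at 0, 9.50 and 10.08 RPKM.

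Over the stretches, the median spread of the sums between libraries shrank as neighbouring rows were included, but not in every stretch. The median coefficient of variation over the 10 stretches was 84.3% for the sum of the Vmn rows alone, 46.6% for the sum of all rows in the stretch and 12.9% with 10 rows added on each side. The wider sums also hold more and larger values, which by itself lowers a coefficient of variation. In 4 of the 10 stretches the number of rows at 1 RPKM or more was equal in all 3 libraries.

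Blocks of 10 consecutive rows were tested because they depend less on which row a value stands on. The mean log2(RPKM + 1) of each block was compared with the mean of all rows of the same library, across 2421 blocks of the whole table, with limma and Benjamini-Hochberg adjustment. Of all blocks, 33.7% were below the mean at an adjusted p under 0.05. The blocks made only of Vmn rows numbered 4, 3 on chromosome 13 and 1 on chromosome 7, and all 4 were below. Their offsets ran from -1.89 to -1.81 on the log2 scale, lower in 3 of 3 libraries each, with adjusted p from 0.000203 to 0.000735 (limma). Of the 37 blocks with Vmn rows in at least 5 of 10 places, 35 were below, with a median offset of -1.66 against 0.06 for all blocks. The exceptions were a block of chromosome 6 (offset -0.32, limma adjusted p = 0.0899) and one of chromosome 7 (offset -0.07, limma adjusted p = 0.587). This test asks only whether an offset repeats between libraries. An offset of -1.89 is the lowest possible and is that of a block with every row at 0. Its p reflects no variation of the receptor rows.

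Interior rows of each gene family on each chromosome were tested in the same way. Of 21 units with 5 or more interior rows, 90.5% were below the mean of all rows. The 2 Vmn units were both below: Vmn1r on chromosome 13 (21 rows) had an offset of -1.85 ± 0.04 (SE; limma adjusted p = 8.3e-05), and Vmn1r on chromosome 7 (5 rows) had an offset of -1.89 ± 0.01 (SE; limma adjusted p = 3.8e-06). The chromosome 7 rows were all at 0 in every library, so this offset is the lowest possible and its p reflects no variation of those rows. Units of other families with every row at 0 had the same offset and p. The share of units below is itself so high that the Vmn result does not stand apart from that of the other units. With runs that bridge 2 other rows, 6 Vmn units could be tested and 92.5% of all units were below. All 6 Vmn units were below, from -1.89 for Vmn2r on chromosome 17, again with every row at 0, to -1.16 for Vmn1r on chromosome 17. The offsets of the last were -0.76, -0.84 and -1.88 in the 3 libraries, so replicate 3 stood apart from the others (limma adjusted p = 0.0323). Vmn1r offsets were -1.86 on chromosome 13, -1.76 on chromosome 7 and -1.36 on chromosome 6, and the Vmn2r offset on chromosome 7 was -1.33.

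Genes that work with the receptors were read as rows too. Trpc2, the ion channel through which vomeronasal neurons respond, was listed at 0 in all 3 libraries, and the highest value within 5 rows of it was 0.299, 0.233 and 0.297 RPKM. Of 19 listed genes of vomeronasal neurons, 4 reached 1 RPKM on their own row in every library, against 32.4% of all rows. These were Gnai2 (63.7, 51.1 and 54.2 RPKM), which many cell types use, Lhx2 (36.8, 34.7 and 32.4), Gap43 (17.3, 11.4 and 2.01) and Omp, the olfactory marker protein (3.14, 7.31 and 7.75). For 18 of the 19, some row within 5 rows reached 1 RPKM in each library, so these levels cannot be assigned to the genes. For Trpc2 no row within 5 rows did. Values of like size stood up to 58 rows apart on chromosome 7, so the Trpc2 level is not assigned either. The row named Gnao1 stood at 12.5, 0.0724 and 0.0465 RPKM. Of the 9 H2-M genes whose products accompany V2R proteins, 0 rows reached 1 RPKM in any library and 6 were at 0 in all. Of all table rows, 33.0% reached it in no library and 18.8% were at 0 in all. The 3 formyl peptide receptor rows of the Fpr-rs group, a further vomeronasal family, were at 0 in all libraries. Some row within 5 rows reached 1 RPKM in each library for 4 of the 9 H2-M rows and 1 of the 3 Fpr-rs rows. The low values of those rows cannot be assigned to the named genes either. Of 10 listed granule neuron genes, 5 reached 1 RPKM in every library on their own row, which is no check of the tissue since levels cannot be assigned to the named genes. The row named Prox1, a defining granule neuron factor, stood at 1.58, 39.3 and 0 RPKM, with values of 39.5, 39.3 and 40.5 RPKM as the highest within 5 rows.

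Matches of single values give the reverse view. The members held 93 values of 1 RPKM or more over the 3 libraries. A value of the same size was found within 10 rows in both other libraries for 25 of them, in 1 other library for 40 and in none for 28. A single window elsewhere on the chromosome held such a match by coincidence in 28.5% of cases, so part of these counts can be coincidence. Members present on more than 1 row of the table, 34 rows in all, were at 0 in all libraries in 79.4% of cases, against 68.4% for members with a single row, and the 8 rows marked as pseudogenes (-ps) in 62.5%. Windows in front of members that reached 1 RPKM in some library (61 windows) held no CG in 41.0% of cases, against 30.7% for the other members (231 windows), a difference that was not tested since row names and values do not stay together.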

How the data were processed

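RNA of 3 dentate gyrus libraries was analysed from 1 table of RPKM values deposited by the authors, who made them with TopHat2 and Cufflinks on mm9, per the submitters' processing notes. Not given in the sources used here are versions, annotation, strand setting, filters and the treatment of shared reads. The table's other 9 value columns match no listed sample and were not used. The RPKM sums were 384523, 369261 and 350942, and read depth is unknown, so no counting interval is given. Members and lists were chosen with earlier results of these data known.

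Shares of rows at 1 RPKM or more were compared over libraries with exact two-sided sign-flip tests. Blocks of 10 rows and families by chromosome were fitted in limma 3.58.1 (R 4.3.3) on log2(RPKM + 1), with a pseudocount of 1 RPKM and each library's mean over all rows subtracted, after a test on simulated data. A pseudocount understates changes of low rows. Stretches, matches, bridged runs and contrasts within chromosomes were added after seeing the data. Named rows are the 10 highest interior and edge rows, those at 1 RPKM or more in all libraries, the ends and flanks of long runs and the listed signalling genes, of which the text gives a part. Rows of chromosome 17 and the stretch values were named after they were seen. Promoter windows came from RefSeq (GRCm38.p6). Coordinates of rows are mm9, and no annotation of that build was used. Alternatives covered thresholds, pseudocounts, edges, block sizes, scaling, filters and single libraries.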

Additional observations from a re-analysis of the deposited data

Results flagged for a closer look

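The difference in the share of rows at 1 RPKM or more between Vmn2r and Vmn1r pointed one way on chromosome 6 and the other way on chromosome 7 in every library. It was -13.7 percentage points on chromosome 6 (9 Vmn2r and 51 Vmn1r rows) and 9.65 points on chromosome 7 (59 and 113 rows). The 2 differences lay 23.4 points apart. The contrast was flagged because their signs were opposite in every library. This fixes its exact sign-flip p at 0.25, the smallest that 3 libraries allow, so that p adds no support. On chromosome 6 the Vmn2r side rests on 9 rows, all under 1 RPKM. At a threshold of 5 RPKM the 2 differences were -8.50 and 6.92 points.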

How the results depend on the processing

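No paired analysis was possible because the series lists 1 group. No difference changed its direction in the mean under any alternative that gave a value. Of 72 values under another setting, 59 were counted as keeping their place. For a difference this asked only for the same sign, so the interior class difference counted at 2.29 against 20.9 points. Where all 3 libraries shared a sign, leaving 1 out could not turn the mean. The interior share and the counts had no direction to turn. The share of interior Vmn rows at 1 RPKM or more (5.21%) became 7.11% with 3 rows set aside at each edge, 2.22% with 8, 8.20% with runs in genomic order and 7.11% with runs bridging 2 other rows, and ran from 4.69% to 6.25% without 1 replicate. The interior minus edge difference ran from -8.02 at a threshold of 0.1 RPKM to -0.89 in genomic order, and the interior class difference from 2.29 to 25.0 points. Counts of Vmn blocks below the mean (4 of 4) became 35 of 37 with Vmn rows in at least 5 of 10 places, 1 of 2 with rows under 0.1 RPKM left out, 19 of 22 for blocks of 5 rows and 1 of 1 for blocks of 20 rows, as other blocks could be tested. Counts of Vmn family units (2 of 2) became 5 of 5 with runs bridging 1 other row, with 3 rows set aside and in genomic order, 6 of 6 with runs bridging 2 and 1 of 1 with 8 rows set aside. With rows under 0.1 RPKM left out no Vmn unit had enough rows, and with 8 rows set aside no Vmn2r row was interior, so those alternatives gave no value. Without rows under 0.1 RPKM the interior class difference in mean log2(RPKM + 1) was 1.12 and rested on 1 Vmn1r and 3 Vmn2r rows, and it was 1.60 with a pseudocount of 0.1 RPKM. Unknown depth, possible shared reads between copies and values that stand on different rows limit any statement on a single receptor. Values that stand on a receptor row in some libraries and on other rows in others also enter the shares by class, chromosome and position. How far they move those shares was not tested.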
